A study of Drosophila melanogaster with 2 samples.

Results

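The genes described here are those for the cytoplasmic ribosomal proteins of Drosophila melanogaster, taken as every gene symbol made of RpL, RpS or RpLP followed by a number and optional letters. The rule found 87 of the 17472 named genes in the deposited count tables, 50 with large-subunit symbols (RpL, RpLP) and 37 with small-subunit symbols (RpS). Brains of third-instar larvae were dissociated with collagenase A and dispase and profiled by droplet single-cell RNA sequencing at transcript 3' ends. The first library, fresh, was labelled as unfixed cells of a hybrid based on the inbred strain DGRP-551 and held 2341 annotated cells, all listed under the genotype name line_M1. The other, MeOH, was labelled as methanol-fixed cells of 7 pooled inbred strains of the Drosophila Genetic Reference Panel (DGRP), numbers 45, 136, 382, 409, 502, 639 and 761, and held 2715 annotated cells, each assigned to its line by genotype. No transgene or drug was named for either library. Strain, fixation and preparation differed together between 2 single libraries, so they cannot be told apart and no test was made between fresh and MeOH. The 7 lines were the replicates for comparisons between cell classes; each was 1 pool of cells within 1 library, from a number of animals that the labels do not give, so the p-values measure only the spread between these pools.

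Ribosomal proteins assemble with ribosomal RNA into the small and large subunits that translate messenger RNA, in near-equal numbers of each protein. In the fly, most are encoded by 1 gene, loss of 1 copy of many of them gives the Minute phenotype of slow growth and thin bristles, and several have a paralog used mainly in the germline. In the larval brain, neuroblasts are stem cells that regrow between divisions and bud off ganglion mother cells, which divide once more to give neurons or glia.

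Ribosomal protein transcripts made up 5006462 of 19752319 unique molecular identifiers (UMIs, counted molecules) in the fresh library, or 25.35% (95% Clopper-Pearson interval 25.33 to 25.37), and 3177434 of 13232788 in the MeOH library, or 24.01% (23.99 to 24.03). These intervals cover counting error only. Cells held a median of 6598 UMIs in fresh and 3564 in MeOH, and 11 cell barcodes occurred in both libraries. The deposited class names were checked against marker genes. Summed neuroblast markers stood at 1340 CPM (UMIs scaled to a common total per class) in MeOH neuroblasts and 57.0 in MeOH neurons, and summed glial markers at 3071 in glia and 99.1 in neurons. Neuronal markers summed to 9845 CPM in neurons and 1085 in neuroblasts. Of the ganglion mother cell markers, tap stood at 357 CPM in those cells and 17.6 in neurons, whereas pros, also a neuronal gene, was at 1694 and 16244. The cluster named SUR carried haemocyte markers, at 319 CPM in MeOH and 598 in fresh, against 19.2 and 7.23 in glia. Its glial markers, at 348 and 191 CPM, compare with 299.9 and 402 in neuroblasts and 3071 and 2738 in glia. It is called only by its deposited name.

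The share of UMIs from ribosomal protein genes was higher in neuroblasts, ganglion mother cells and glia than in neurons, each taken as a whole class. In the MeOH library it was 30.35% in neuroblasts, 26.06% in ganglion mother cells, 29.64% in glia and 21.58% in neurons. In the fresh library the same classes stood at 31.20%, 28.95%, 31.98% and 22.60%, in each case above MeOH. SUR had 35.41% in MeOH and 39.51% in fresh, and exceeded glia within each of 7 lines by 5.78 ± 2.04 points (SD, n = 7 lines with at least 5 cells of each).

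By line, neuroblasts ranged from 27.98% in DGRP-639 through a median of 28.69% to 34.47% in DGRP-761, a mean of 30.29% ± 2.59 (SD, n = 7 lines). Neurons ranged from 19.39% in DGRP-639 through 21.35% to 23.07% in DGRP-409, a mean of 21.55% ± 1.39 (SD, n = 7). Every line's neuroblasts lay above every line's neurons. Within a line, neuroblasts exceeded neurons by 8.73 ± 1.53 percentage points (SD, n = 7 lines), from 7.20 in DGRP-382 to 11.42 in DGRP-761, and by 8.60 in fresh. The 5 lines with at least 10 glial cells had glial shares of 29.92% (DGRP-45), 28.52% (DGRP-136), 27.90% (DGRP-409), 27.24% (DGRP-639) and 32.95% (DGRP-761). All 5 were above the neurons of every line, and the difference within a line was 7.89 ± 2.03 points (SD, n = 5). These shares are a score over the gene family and carry no test.

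Ganglion mother cells ranged from 18.07% in DGRP-639 through a median of 27.67% to 29.95% in DGRP-761, and exceeded neurons by 4.80 ± 2.94 points (SD, n = 7) in 6 of 7 lines. The exception was DGRP-639, at 1.32 points below its neurons (-1.32). A single cell, labelled CB GMC, held 37249 UMIs or 34.86% of that line's ganglion mother cell total. Only 3.86% of its UMIs were from ribosomal protein genes, while 36.8% were from Peritrophin-15a and 10.3% from Peritrophin-15b, which encode chitin-binding proteins of the gut lining. Without that cell the line stood at 25.67%, the difference was 5.88 ± 1.18 points (SD, n = 7) and all 7 lines shared its direction; fresh gave 6.35.

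Depth and mitochondrial share moved with class. Median UMIs per MeOH cell were 7414 in neuroblasts, 4816 in glia, 2828.5 in ganglion mother cells and 3333 in neurons, and mitochondrial genes took 2.35%, 2.60%, 2.42% and 2.22% of UMIs in the same order. Their part in the difference in share was not tested.

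**Figure D1:**
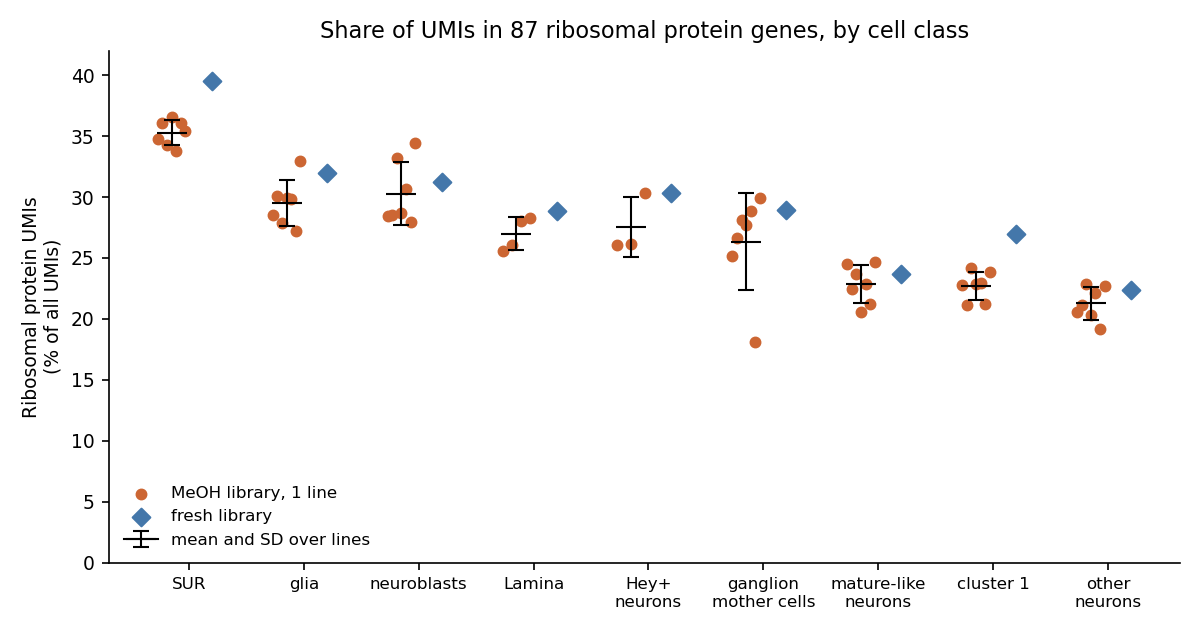
Percent of UMIs from the 87 ribosomal protein genes (vertical axis, starting at 0) in each cell class. Orange points are MeOH lines with at least 5 cells of the class, black marks their mean and SD, and blue diamonds the fresh library; neuroblasts and glia lie above neurons in every line, and 1 ganglion mother cell point, DGRP-639 at 18.07%, lies far below its class.

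Within these classes the deposited clusters differed as well. Type II neuroblasts, which produce the intermediate progenitor lineages of the central brain, had 33.45% in MeOH and 34.0% in fresh. Neuroblasts named OL Type I NB had 26.38% and 28.96%, and CB Type I NB lay between at 29.45% and 29.92%. In the 5 lines with at least 5 cells of each, Type II exceeded OL Type I by 6.82 ± 0.54 points (SD, n = 5), from 5.99 to 7.45. Among glia, the cluster named ENS had 32.85% and CTX 24.67% in MeOH, 34.53% and 27.80% in fresh, and ENS was higher within each of 4 lines, by 8.44 ± 2.72 points (SD, n = 4). The glial cluster AST had 35.20% in MeOH and 33.77% in fresh.

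Among neurons, the mature-like group (clusters 3 and 33 and G-KC) had 23.37% in MeOH against 21.17% in the other neurons, and 23.71% against 22.40% in fresh. Mature-like exceeded other neurons in 7 of 7 lines, by 1.59 ± 1.22 points (SD, n = 7), from 0.26 in DGRP-45 to 3.93 in DGRP-136. The groups overlapped between lines: mature-like ran from 20.61% to 24.69% and other neurons from 19.19% to 22.87%. Mature-like is used here only as a name for this group. Neuronal markers summed to 7732 CPM in mature-like and 10330 CPM in other neurons of MeOH. In fresh they summed to 6547 and 6350 CPM. Neurons of the cluster marked Hey+, a Notch target, had 27.00% in MeOH and 30.30% in fresh, and the cluster named Lamina 27.43% and 28.90%. Neuronal markers summed to 1540 CPM in MeOH Lamina and 1548 in fresh Lamina, against 9845 and 6380 in neurons. The lowest shares were in the small cluster named DCN, at 17.69% over 10 cells in MeOH and 17.77% over 5 cells in fresh. Next came cluster 8 in MeOH, at 19.25%, and G-KC in fresh, at 18.72%. Some neuronal clusters reached the shares of progenitor or glial clusters. Cluster 30 had 25.99% in MeOH and 28.74% in fresh, and cluster 21 had 24.69% and 27.37%. Cluster 34 had 28.34% over 7 cells in MeOH and 26.70% over 15 in fresh. For comparison, CTX glia had 24.67% and 27.80%, and CB GMC 25.43% and 29.03%. Cluster 31, kept apart from the neurons, had 31.48% and 33.49%.

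Of 35 annotation values with at least 10 cells in both libraries, 31 had the higher share in fresh. The exceptions were AST, G-KC and clusters 25 and 32. The order of the clusters was similar, with a Spearman rho of 0.92 and a Pearson r of 0.96 over the 35 values, which share library and depth and are given as a description. Across the lines of MeOH, all cells together ranged from 22.01% in DGRP-639 to 26.26% in DGRP-761, 23.85% ± 1.40 (SD, n = 7), and the fresh value of 25.35% lay within this range.

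**Figure D2:**
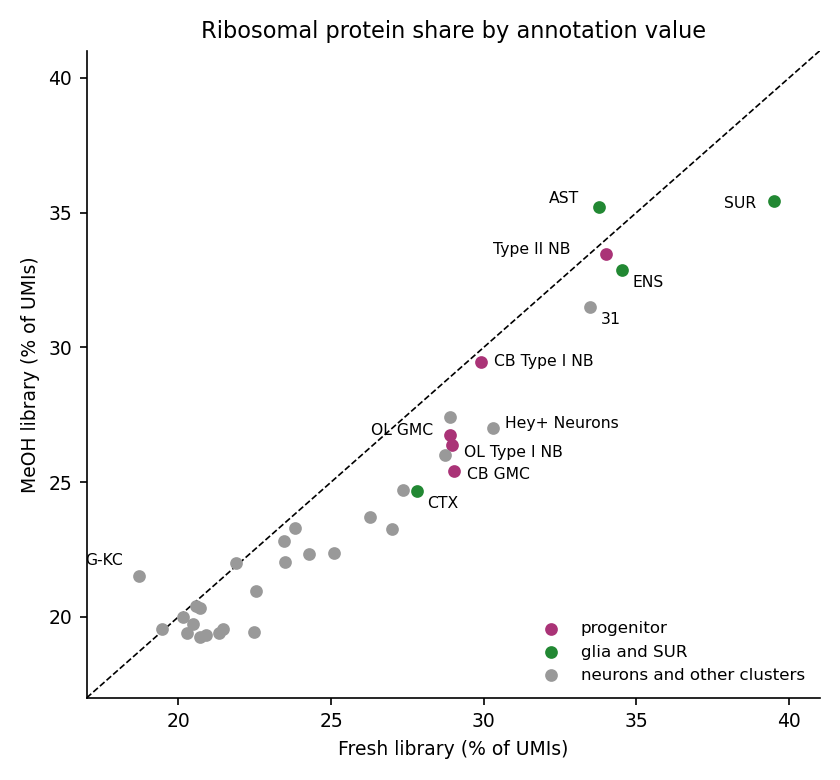
Percent of UMIs from ribosomal protein genes in fresh (horizontal axis) and MeOH (vertical axis) for the 35 annotation values with at least 10 cells in both, coloured by class, with a dashed line of equality. Most points, 31 of 35, lie on the fresh side of the line, and SUR, AST, ENS and Type II NB lie at the top in both.

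Individual members were counted deeply. Over both libraries, 80 of 87 had more than 10000 UMIs, 3 had 100 to 10000 (RpS15Ab, RpS5b and RpS19b) and 4 had under 100. The last were RpL37b with 4, RpS28a with 5, RpS10a with 14 and RpL10Aa with 0. At least 90% of cells of both libraries held a UMI of 78 members. Among those with most UMIs were RpLP2 and RpLP1, the acidic proteins of the stalk that recruits translation factors, and RpS25 and RpS13 of the small subunit. RpLP2 made up 2.13% of the ribosomal protein total in fresh and 2.40% in MeOH, RpS25 2.17% and 2.23%. Small-subunit genes gave 40.45% of the total in fresh and 40.61% in MeOH. By line this was 40.91% ± 0.13 in neurons, 40.16% ± 0.31 in neuroblasts and 40.24% ± 0.30 in ganglion mother cells (SD, n = 7 each).

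Nearly every member took part in the higher share of progenitors and glia. Each gene was tested between classes on counts summed per line, with line as a block (edgeR quasi-likelihood test, Benjamini-Hochberg adjustment over all genes tested, threshold 0.05). In neuroblasts 79 of 81 tested members rose against neurons and 0 fell, where 29% of all 4164 genes tested rose and 34.7% fell. DESeq2 gave 77 and 0, and at an unadjusted p under 0.05 edgeR also gave 0 that fell. The median log2 difference was 0.47 over members and -0.06 over all genes. The members not called were RpS14a, at 0.06, and RpS14b, at -0.01, which are 2 gene copies for 1 small-subunit protein. The largest rise was in RpS15Ab, at 1.63, followed by RpL34a at 0.71 and RpL13 at 0.66.

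In ganglion mother cells 74 of 81 members rose and 0 fell, against 24.8% and 31.2% of 3370 genes, with a median of 0.38 over members and -0.09 over all genes. DESeq2 gave 68 and 0, and at an unadjusted p under 0.05 edgeR also gave 0 that fell. Scaling by total UMIs in place of TMM factors gave 47 of 81, and dropping the low-count filter 39 of 86, the former with a median of 0.26. Of the 74 called members, 21 had the same sign in every line, against 78 of 79 in neuroblasts and 76 of 81 in glia. In glia 80 of 82 rose, against 21% of 4484 genes (24.7% fell), with a median of 0.68 over members and -0.11 over all genes. RpS14b was not called. RpS5b was called lower, but it had passed the low-count filter only through neurons, so nothing is read from that call. In mature-like neurons 28 of 82 rose against other neurons and RpL38 fell, against 22.6% and 18.2% of 3988 genes; RpS5b was again called lower with the same limit. The median was 0.13 over members and 0.00 over all genes. That count rests on single lines: it was 16 without DGRP-136 or without DGRP-639, 17 without DGRP-382, 18 without DGRP-409, and 3 of 86 with no low-count filter.

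A rise shared by the family hides members that differ from the rest. The same fit was therefore repeated with the summed ribosomal protein UMIs as the library size, so that a value of 0 means a constant part of the ribosomal protein total. Most members moved little: 76 of 81 in neuroblasts, 75 of 81 in ganglion mother cells, 75 of 82 in glia and 75 of 82 in mature-like neurons were within 0.25 log2 units of 0. In neuroblasts 11 were called higher and 14 lower, where 13.9% and 53.2% of all genes were. The counts were 8 and 9 in ganglion mother cells (12.3% and 47.7% of all genes) and 5 and 9 in glia (10.6% and 52.2%). Mature-like neurons had 7 and 7 (16.6% and 25.8%). The lower members in glia and in mature-like neurons include RpS5b. The counts called higher were near or under the shares of all genes. On this scale the median over all genes was itself -0.52, -0.49, -0.78 and -0.14 in the same order. The shares of all genes that fell are therefore not a like measure for the members. In the fresh library the sign was shared by 24 of 25 called members in neuroblasts, 17 of 17 in ganglion mother cells, 14 of 14 in glia and 14 of 14 in mature-like neurons. The exception was RpS6, at 0.03 in fresh neuroblasts. These counts move with single lines: the 5 higher in glia became 1 without DGRP-639, 2 without DGRP-761, and 3 without DGRP-45 or DGRP-409, and the 14 lower in neuroblasts became 9 without DGRP-639. In mature-like neurons the 7 higher became 3 without DGRP-136 or DGRP-409 and 4 without DGRP-761, and the 7 lower became 4 without DGRP-409, DGRP-639 or DGRP-761.

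**Figure D3:**
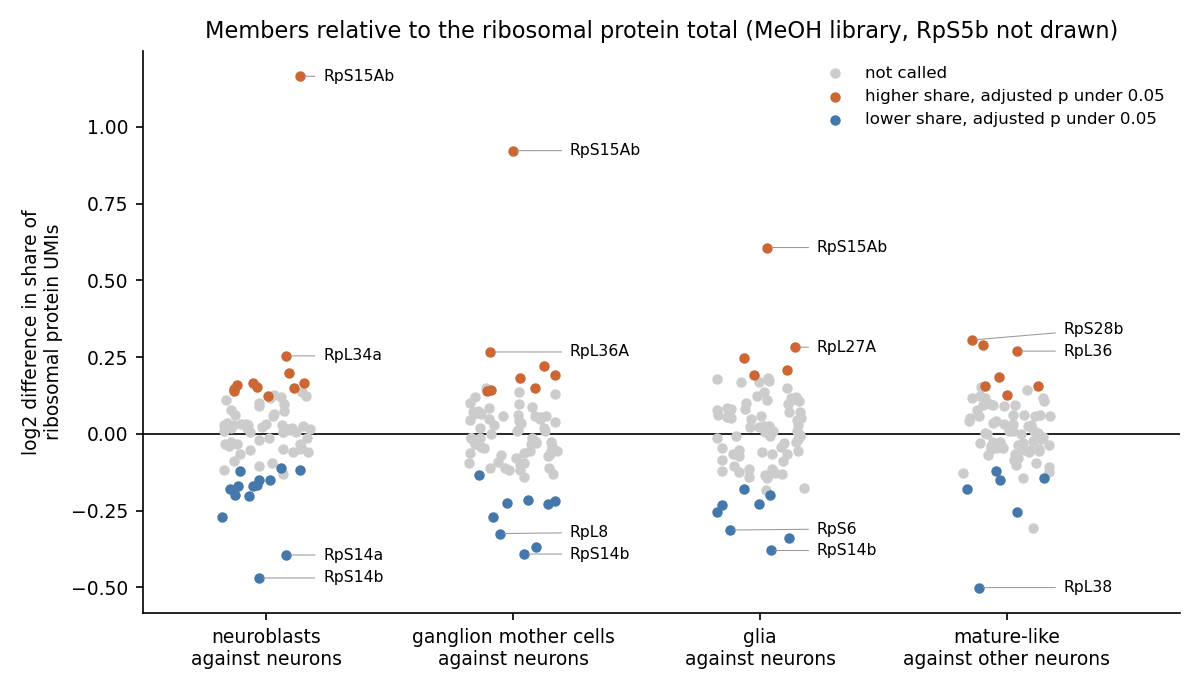
Log2 difference in share of the ribosomal protein total for each tested member (points) in the 4 comparisons, with members called higher in orange, lower in blue and not called in grey; RpS5b is not drawn. Most points lie within 0.25 of 0, RpS15Ab stands highest in neuroblasts at 1.16, and RpS14a and RpS14b stand lowest there.

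Members called in all of neuroblasts, ganglion mother cells and glia were RpS15Ab, higher in each, and RpL37a, RpS14a, RpS14b, RpS15 and RpS24, lower in each. The classes were set against the same neurons of each line, so these calls are not independent of each other. RpS15Ab, the less abundant copy of the gene pair for small-subunit protein uS8, took 0.0746% (lowest line), 0.109% (median) and 0.131% (highest) of the ribosomal protein total in neuroblasts. In neurons it took 0.0307%, 0.0455% and 0.0524%, so that no line of one class overlapped the other. The log2 difference was 1.16 (edgeR quasi-likelihood adjusted p = 3.12e-07, higher in 7 of 7 lines), and 1.55 in fresh. In ganglion mother cells its lines spanned 0.0598% to 0.114%, also apart from neurons, with a difference of 0.92 (edgeR adjusted p = 9.94e-05, 7 of 7 lines). In glia they spanned 0.0562% to 0.0767%, with a difference of 0.61 (edgeR adjusted p = 0.0196, 5 of 5 lines), which was not called without DGRP-639 (0.46, adjusted p = 0.0996).

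RpS14a and RpS14b lie next to each other on the X chromosome, at chrX:7933742-7934677 and chrX:7934898-7935792 on the plus strand (dm6 coordinates), and are known to encode the same protein. How reads that match both copies were assigned is not given in the sources used here, so the split between them is uncertain. RpS14a took 0.544%, 0.627% and 0.700% of the total in neuroblasts (lowest, median and highest line) and 0.743%, 0.816% and 0.871% in neurons, with no overlap. RpS14b took 0.261%, 0.301% and 0.335% against 0.384%, 0.408% and 0.457%, also apart. The log2 differences were -0.39 for RpS14a (edgeR adjusted p = 2.10e-05) and -0.47 for RpS14b (edgeR adjusted p = 7.25e-05), both lower in 7 of 7 lines, and -0.38 and -0.41 in fresh. Ganglion mother cells gave -0.37 and -0.39, glia -0.34 and -0.38, again lower in every line tested, although the lines of RpS14b in ganglion mother cells (0.269% to 0.388%) overlapped those in neurons.

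RpL37a, a zinc-binding protein of the large subunit, took 1.23%, 1.34% and 1.55% of the total in neuroblasts and 1.57%, 1.63% and 1.74% in neurons, without overlap, a difference of -0.27 (edgeR adjusted p = 0.000312, lower in 7 of 7 lines; -0.39 in fresh). RpS15 differed by -0.17 in neuroblasts, -0.13 in ganglion mother cells, -0.23 in glia and -0.14 in mature-like neurons, and was the member called in all 4 comparisons. Apart from RpS15Ab, the higher parts named were small. RpL34a differed by 0.25 in neuroblasts (edgeR adjusted p = 0.0126), which was not called without DGRP-136 (adjusted p = 0.0589). RpL36A differed by 0.27 in ganglion mother cells (edgeR adjusted p = 0.00193), and RpL27A and RpL5, the latter a partner of 5S ribosomal RNA, by 0.28 and 0.25 in glia. RpL8, a protein near the peptidyl transferase centre, was lower in ganglion mother cells by -0.32, with overlapping lines (0.612% to 0.876% against 0.818% to 1.07%). RpS6, the substrate of S6 kinase, was lower in glia by -0.31, with lines that just overlapped (0.368% to 0.521% against 0.515% to 0.586%).

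Mature-like neurons differed from other neurons in a different set of members. RpL38 took 0.992%, 1.07% and 1.35% of the total in mature-like neurons (lowest, median and highest line) and 1.30%, 1.58% and 1.68% in other neurons. The lines overlapped between groups, but within each line mature-like neurons were lower, by 0.50 log2 units on average (log2 difference -0.50, edgeR adjusted p = 1.38e-05, lower in 7 of 7 lines). Fresh gave 1.03% against 1.56%. RpL38 is known in the mouse for a part in translating Hox messages. RpS28b took 1.16%, 1.28% and 1.41% against 0.988%, 1.03% and 1.11%, apart, a difference of 0.31 (edgeR adjusted p = 0.000349). RpL34b took 0.835% to 0.967% against 0.685% to 0.831%, apart, a difference of 0.29 (edgeR adjusted p = 0.00123). RpL36 was higher by 0.27, in 7 of 7 lines.

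RpS5b, the copy of RpS5a known for use in the fly ovary, had a wide contrast between classes. It was seen mainly in neurons, with 385 UMIs in other neurons of MeOH (64.1 CPM) and 761 in fresh (66.3 CPM). Mature-like neurons had 10 UMIs in MeOH (7.26 CPM) and 12 in fresh (5.73 CPM). Per line it took 0 to 0.00786% of the total in mature-like neurons and 0.0162% to 0.0477% in other neurons, apart, with a log2 difference of -3.17, and -3.61 in fresh. Neuroblasts had 7 UMIs in MeOH and 9 in fresh, ganglion mother cells 6 and 4, and glia 0 and 2. The 0 among 185038 ribosomal protein UMIs of 103 MeOH glia allows a part of up to 0.00162% (3 counts over the group), at least 15.3-fold lower than the 0.0248% of neurons. RpS5b passed the low-count filter only through the neurons, where it is high, so these values are a description with no test. It was filtered out in neuroblasts and ganglion mother cells. In both libraries its part of the total was highest in clusters 25 and 7, at 172 and 176 CPM in MeOH and 177 and 188 in fresh. Cluster 1, a MeOH-rich cluster kept apart from the neurons, held 56 UMIs in MeOH and 0 in fresh.

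**Figure D4:**
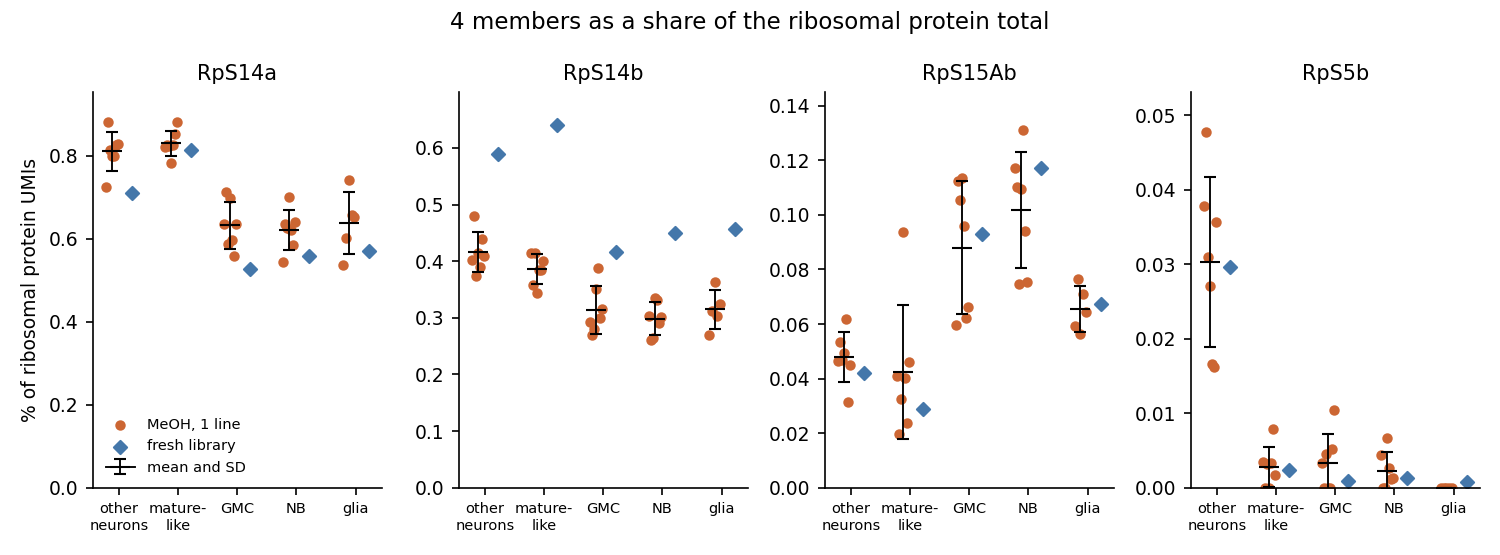
Percent of the ribosomal protein total taken by RpS14a, RpS14b, RpS15Ab and RpS5b (panels, vertical axes) in 5 cell classes, with a point per MeOH line, black mean and SD, and a blue diamond for fresh. RpS15Ab is highest in neuroblasts, RpS14a and RpS14b are lowest outside neurons, and RpS5b is near 0 outside the other neurons; for RpS14b the fresh diamonds lie above the lines.

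There were 9 pairs of symbols that differ only in a final a or b. In 4 of them 1 copy held nearly all UMIs: RpS10b, RpS28b, RpL10Ab and RpL37a. RpS15Ab held 12.2% ± 2.5 of the RpS15Aa and RpS15Ab UMIs in neuroblasts, 10.9% ± 2.7 in ganglion mother cells and 6.12% ± 1.29 in other neurons (SD, n = 7 lines each). Fresh gave 14.4%, 11.6% and 6.01%. RpL34b held 79.3% ± 3.4 of its pair in mature-like neurons and 73.5% ± 2.1 in other neurons. RpS5b held 2.46% ± 0.93 of its pair in other neurons and 0.237% ± 0.22 in mature-like neurons. RpS19b, whose pair partner RpS19a is the main copy and which is itself known from the fly germline, had 27 of 57 MeOH UMIs and 27 of 55 fresh UMIs in neuroblasts. Of those in MeOH, 21 were in Type II NB. RpS19b held 0.847% of its pair in MeOH neuroblasts and 0.449% in fresh ones. Lamina was as high, at 0.856% and 0.768%, on 5 and 7 UMIs. RpS14b held 32.4% ± 2.5 of its pair in neuroblasts and 33.9% ± 1.5 in other neurons, close to equal across classes, whereas fresh held 44.9% over all cells.

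Across the 7 lines the members of the family kept to similar parts of the total. In other neurons the SD over lines of the log2 part had a median of 0.063 over 82 members. The 5 members with the widest spread were RpS5b (0.59), RpS15Ab (0.30), RpL8 (0.17), RpL36 (0.16) and RpL22 (0.13). RpS5b and RpS15Ab rest on few counts there, 385 and 584 UMIs over the 7 lines, so counting error adds to their spread. How much it adds was not tested. RpL8 took 0.819%, 0.853% and 0.843% in DGRP-136, DGRP-382 and DGRP-761, and 0.995% to 1.08% in DGRP-502, DGRP-45, DGRP-639 and DGRP-409. In the remaining cells of the same lines, which are different cells, the first 3 lines had 0.769% to 0.791% and the other 4 had 0.875% to 0.964%. RpL36, a large-subunit protein, took 1.04% in DGRP-45 and 1.29% to 1.47% in the other 6 lines. In the remaining cells it took 1.18% in DGRP-45 and 1.42% to 1.57% elsewhere. A line has 1 pool of cells here, so these differences have no replicate within a line, and any effect of sequence differences between the strains on read alignment was not tested.

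**Figure D5:**
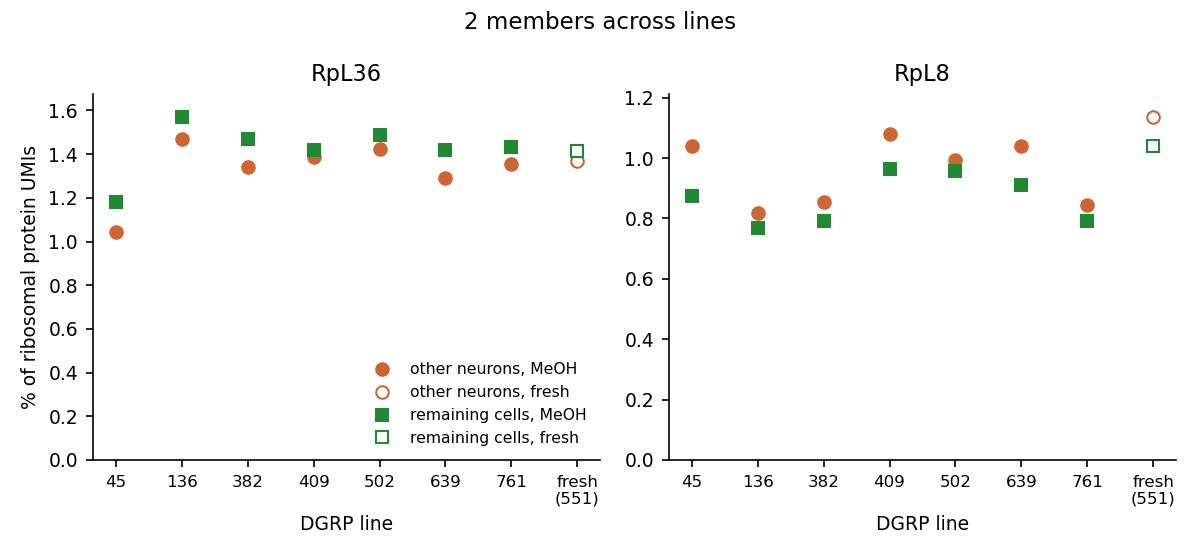
Percent of the ribosomal protein total taken by RpL36 and RpL8 (panels) in each of the 7 MeOH lines and in fresh, for other neurons (circles) and the remaining cells (squares). DGRP-45 is lowest for RpL36 in both sets of cells, and DGRP-136, DGRP-382 and DGRP-761 are lowest for RpL8 in both.

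Between the libraries most members took similar parts of the total. Of 83 members with at least 100 UMIs, 73 were within 1.25-fold and 4 differed by more than 1.5-fold, where 25.1% of 7507 genes did. RpL22 took 0.400% in fresh and 0.232% in MeOH, a log2 ratio of MeOH to fresh of -0.78 (95% counting interval -0.82 to -0.75). RpL39 took 1.30% and 2.15%, a ratio of 0.73 (0.71 to 0.75), and RpL29 took 0.786% and 1.23%, a ratio of 0.65 (0.63 to 0.67). RpL23A took 1.21% and 0.811%, a ratio of -0.58 (-0.60 to -0.56). RpS19b, also among the 5 largest ratios, rests on 55 and 57 UMIs (0.71, 0.15 to 1.27). In other neurons the ratio was -0.76 for RpL22, 0.71 for RpL39, 0.66 for RpL29 and -0.67 for RpL23A. These are differences between 2 libraries, with no replicate check. Fresh lay below all 7 lines for 25 of 82 members and above all 7 for 28 in other neurons, where 23% and 17.2% of all genes did. In CPM the counts were 7 below and 32 above, where 20.8% and 26.7% of all genes were.

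Genes that work with the ribosome moved with its proteins to differing extents. Of the translation initiation factors 19 of 27 rose and 2 fell in neuroblasts against neurons (edgeR test as above, median 0.48). In ganglion mother cells 16 rose and 0 fell. In glia 7 rose and 1 fell, where 21% of all genes rose and 24.7% fell. The glial count that rose was near that background, with a median of 0.34 over the list and -0.11 over all genes. Of 18 tested ribosome biogenesis genes 17 rose and 0 fell in neuroblasts, with a median of 1.10. In ganglion mother cells 7 of 13 rose and in glia 9 of 18, with 0 falling in either. hoip, a fly relative of the snoRNP protein SNU13, stood at 385 ± 130 CPM in neuroblasts and 163 ± 27 in neurons (SD, n = 7), a log2 difference of 1.21 (edgeR adjusted p = 2.36e-07, 7 of 7 lines). Of 69 tested mitochondrial ribosomal proteins 19 rose and 2 fell in neuroblasts, 5 of 60 rose and 4 fell in ganglion mother cells, and 2 of 69 rose and 1 fell in glia. The shares that rose and the shares that fell both lie under those of all genes given above. The medians of this list were 0.25 in neuroblasts, 0.10 in ganglion mother cells and 0.14 in glia. Over all genes they were -0.06, -0.09 and -0.11.

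The paralogs for elongation factor eEF1alpha moved in opposite directions. eEF1alpha1, which delivers aminoacyl-tRNA, stood at 6124 ± 525 CPM in neuroblasts and 1698 ± 416 in neurons (SD, n = 7), a log2 difference of 1.85 (edgeR adjusted p = 1.80e-12, 7 of 7 lines). Its paralog eEF1alpha2 stood at 50.7 ± 18.9 and 959 ± 103 CPM, a difference of -4.40 (edgeR adjusted p = 7.81e-14, lower in 7 of 7 lines). Of the 8 elongation and release factors 6 rose and 1, eEF1alpha2, fell in each of neuroblasts, ganglion mother cells and glia. Rack1, a small-subunit protein outside the symbol rule, rose by 0.66 in neuroblasts, 0.47 in ganglion mother cells and 0.91 in glia. Of the growth regulators tested, 0 of 8 rose and 5 fell in neuroblasts, where 29% of all genes rose and 34.7% fell. In ganglion mother cells 0 of 7 rose and 2 fell, and in glia 0 of 8 rose and 1 fell. Over all genes 31.2% and 24.7% fell there, so those falls were near or under that background. Myc, a transcription factor that drives ribosomal genes, differed by -1.08 in neuroblasts and -2.06 in ganglion mother cells, with 7 of 7 lines lower in each, and by 1.19 in mature-like neurons, with 7 of 7 higher. In fresh the Myc difference in neuroblasts was -0.11.

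In mature-like neurons 5 of 27 initiation factors rose and 2 fell, 4 of 8 elongation and release factors rose and 2 fell, 4 of 15 biogenesis genes rose and 0 fell, and 13 of 69 mitochondrial ribosomal proteins rose and 3 fell. Of 8 growth regulators 2 rose and 0 fell. Over all genes 22.6% rose and 18.2% fell, so the counts of initiation factors, biogenesis genes, growth regulators and mitochondrial ribosomal proteins that rose were near that background. The 2 tested RNA polymerase I genes gave 1 rise and 1 fall in neuroblasts, 0 and 0 in ganglion mother cells, 0 and 1 in glia, and 0 and 0 in mature-like neurons. Of 4 ribosomal proteins outside the symbol rule 3 rose in neuroblasts, 2 in ganglion mother cells, 3 in glia and 1 in mature-like neurons, with 0 falling.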

How the data were processed

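UMI counts per gene and cell were deposited by the authors, 1 table per library, with a metadata table of annotations and genotypes. Cell Ranger, Seurat and build dm6 are named in the submitters' processing notes; versions and annotation are not given in the sources used here. The extraction text of both samples describes methanol; the fixation field set the groups. Cells in the metadata table were kept, with no further doublet removal. A row with no gene name (3 UMIs per library, 1.52e-05% of fresh and 2.27e-05% of MeOH) was left out. Counts were summed per line and class, keeping lines with 10 or more cells in each class, and entered edgeR 4.0.16 (R 4.3.3; filterByExpr, TMM, line as block, Benjamini-Hochberg over all genes tested), checked on simulated data; DESeq2 1.42.0 was an alternative. Neurons are the numbered clusters except 1 and 31, plus G-KC and DCN. Glia are AST, ENS and CTX. Gene positions and names matched for 86 members (RpL37a had none). Named genes were the 5 largest departures per comparison with 1 sign in every line, the 5 widest across lines, the 5 largest library ratios, all a/b pairs, the 5 with most UMIs and up to 4 per pathway list; others were chosen after their values were seen, and 1 named by the rule is not reported here. Members, classes and lists were chosen with earlier results of these data known. Lines, not replicate numbers, give the pairing.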

Additional observations from a re-analysis of the deposited data

Results flagged for a closer look

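Of 13 sets of lines examined for a line that stands apart (Dixon's ratio), 8 were shares by class, where chance would flag about 1 in 20. The other 5 were the members with the widest spread over lines, so that rate does not apply to them. In ganglion mother cells DGRP-639 had 18.07% of UMIs in ribosomal protein genes, with a gap to the next line of 0.595 of the range, and 25.67% without 1 cell of 37249 UMIs that was rich in Peritrophin-15a. RpL36, 1 of those 5 members, took 1.04% of the ribosomal protein total in other neurons of DGRP-45, with a gap of 0.579 of the range, and that line was also lowest in its remaining cells, at 1.18%.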

How the results depend on the processing

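The differences in share between classes kept their direction and moved by less than 1 SD under every alternative run. Leaving out each line in turn gave 8.28 to 8.98 points for neuroblasts, 4.38 to 5.81 for ganglion mother cells, 7.39 to 8.66 for glia and 1.20 to 1.81 for mature-like neurons. In those fits members higher per gene numbered 79 to 79, 72 to 74, 78 to 80 and 16 to 26, and members lower 0 to 1, 0 to 1, 1 to 1 and 2 to 3. Departures higher numbered 8 to 13, 6 to 8, 1 to 4 and 3 to 8, and lower 9 to 13, 8 to 10, 7 to 9 and 4 to 7.

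With no low-count filter, 39 members were higher and 1 lower in ganglion mother cells, 1 was lower in neuroblasts and 3 were higher in mature-like neurons; departures higher became 5 in ganglion mother cells and 3 in glia, and 3 higher and 4 lower in mature-like neurons. Total UMIs as scaling gave 47 higher in ganglion mother cells. One member was lower in neuroblasts with at least 20 cells per line (2 lines left), without the 5% of cells with most UMIs, or with cluster 1 as neurons, and 1 in ganglion mother cells with 20 cells or cluster 1; RpS5b enters the test there. Without the replicate block (line as pairing), departures were 7 higher and 9 lower in neuroblasts and 4 and 4 in mature-like neurons; per-gene counts stayed within 1.5 times.

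At least 20 cells gave 3 higher and 6 lower departures in neuroblasts and 0 and 1 in glia (2 lines each), and leaving out the deepest 5% of cells gave 5 higher in neuroblasts. In glia, DESeq2 gave 2 higher and 4 lower, at least 5 cells 10 higher and 0 members lower per gene, and cluster 1 as neurons 2 higher. DESeq2 gave 4 and 4 in mature-like neurons. In CPM, 0 members had 1 line apart, against 5 of 82 as part of the total. The cause of these changes was not tested, apart from fewer lines or added genes where stated. Members with few UMIs (RpL10Aa, RpL37b, RpS28a, RpS10a) could not be compared at this depth. Leaving out the Peritrophin-15a-rich cell, chosen after seeing the data, gave 74 and 0 members per gene in ganglion mother cells and 10 and 9 departures.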

Other observations

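Other members that had 1 line apart from the rest in other neurons were RpL3 and RpL18, highest in DGRP-502 at 0.929% and 1.18% of the ribosomal protein total, RpL38, lowest in DGRP-502 at 1.30%, and RpL23A, highest in DGRP-639 at 0.931%. In the remaining cells of those lines the values were 0.955%, 1.18%, 1.25% and 0.898%, and each line was again the extreme on that side. Chance flags about 1 in 20 members, and these members were named after their values were seen.

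Cells with under 10% of UMIs from ribosomal protein genes numbered 3 in MeOH and 0 in fresh. Beside the cell rich in Peritrophin-15a, they were a CTX cell of DGRP-761 at 7.55% and a cell of cluster 3 of DGRP-639 at 9.86%.

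By annotated transcript length, 26 of the 41 shorter members and 16 of the 41 longer ones took a higher part of the total in MeOH than in fresh. The shorter and longer members had median lengths of 562 and 774 bases.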
